A study of Mus musculus with 9 samples.

Results

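The adhesion receptors examined here were 9 genes of neutrophils: the integrin alpha chains Itgam (CD11b), Itgal (CD11a), Itgax (CD11c) and Itga4, the integrin beta chains Itgb2 and Itgb1, the selectin ligand Selplg (PSGL-1), the hyaluronan receptor Cd44 and the integrin counter-receptor Icam1. They were found by gene symbol among 22064 genes listed in the deposited tables, of which 18325 had values and 14108 were tested. All 9 had values and passed the filter on low counts. The libraries were bulk RNA-seq of CD45+ lung neutrophils sorted by Ly6g from BALB/c female mice, with 3 libraries in each of 3 groups. The Ly6Ghigh and Ly6Glow groups came from lungs at the macrometastatic (MACRO) stage after 4T1-LM3 breast cancer cells, a lung-metastatic line, had been placed in the mammary fat pad. The NL group was Ly6Ghigh neutrophils from normal lung of BALB/c female mice, for which the labels name no tumor. No transgene, gene deletion or drug is named for any group. The BALB/c mice were 6 to 8 weeks old when obtained, and their age at sorting is not stated. Replicates are called separate biosamples without saying whether they came from separate mice or pools, so the p-values measure the spread between these libraries.

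Neutrophils leave blood in steps. Selectins on the vessel wall bind carbohydrate on Selplg and Cd44 and slow the cell, chemokines then switch integrins to a high-affinity shape through talin and kindlin, and the beta2 integrins bind counter-receptors such as Icam1 on endothelium for arrest and crawling. Each integrin is a pair of an alpha and a beta chain, and Itgam, Itgal, Itgax and Itgad share the beta chain Itgb2, whereas Itga4 pairs with Itgb1 or Itgb7.

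The libraries held between 15267177 and 17841807 estimated counts, and levels are given as CPM, counts scaled to the library size after TMM normalization. A gene was called when its adjusted p (edgeR quasi-likelihood test, Benjamini-Hochberg over all genes tested) was at most 0.05 and its log2 fold change was beyond 0.58 in either direction. The SD over 3 libraries was between 0.16% and 9.67% of the mean for the 9 receptors. NL replicate 2 stood apart from the other NL libraries, with a chi-square per degree of freedom of 5.07 and 3.90 against them, compared with 1.39 to 2.40 for all other pairs of replicates. Ly6g itself, whose protein defined the sort, was at 374 ± 10.8 CPM in Ly6Ghigh, 394 ± 9.32 in Ly6Glow and 119 ± 1.40 in NL libraries (SD, n = 3), and its transcript was not called between the MACRO groups (log2 fold change 0.08, adjusted p = 0.0577 by edgeR; -0.16 on the FPKM scale). The 12 neutrophil marker genes summed to 103500 to 106000 CPM in Ly6Ghigh, 88920 to 90740 in Ly6Glow and 25010 to 25230 in NL libraries, with none at 0. The FPKM scale divides by transcript length and by all fragments, without TMM. On it the median log2 fold change of all genes was -0.13 for Ly6Glow over Ly6Ghigh, -0.32 for Ly6Ghigh over NL and -0.49 for Ly6Glow over NL, compared with -0.04, -0.09 and -0.16 with TMM, and a receptor's value on that scale is given below where the call or direction differs.

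The 9 receptors split into 3 patterns. With TMM scaling, Itgam, Itgb2, Itga4 and Selplg were called higher in both MACRO groups than in NL. Itgax, Itgb1 and Icam1 were called lower in both, and Itgal and Cd44 were highest in Ly6Glow. On the FPKM scale the calls of Itgb2 and Itga4 against NL were lost, and Itgal and Cd44 were highest in NL. For Ly6Ghigh over NL, 4 of 9 were called higher, where 26.3% of all genes tested were, and 3 of 9 lower, where 36.6% were. For Ly6Glow over NL, 5 of 9 were called higher (28.7% of all genes) and 3 of 9 lower (40.8% of all genes). For Ly6Glow over Ly6Ghigh, 2 of 9 were called higher (9.29% of all genes) and 0 of 9 lower (15.9% of all genes), while 7 passed an adjusted p of 0.05 with no threshold on size, as 55.8% of all genes did. In either direction these comparisons called 62.9%, 69.5% and 25.2% of all genes, against 7, 8 and 2 of the 9 receptors. The values of the groups did not overlap for 9, 9 and 7 receptors in these comparisons, where 85.2%, 86.8% and 62.1% of all genes did not. Both comparisons with NL share the same 3 control libraries and are therefore given side by side.

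**Figure D1:**
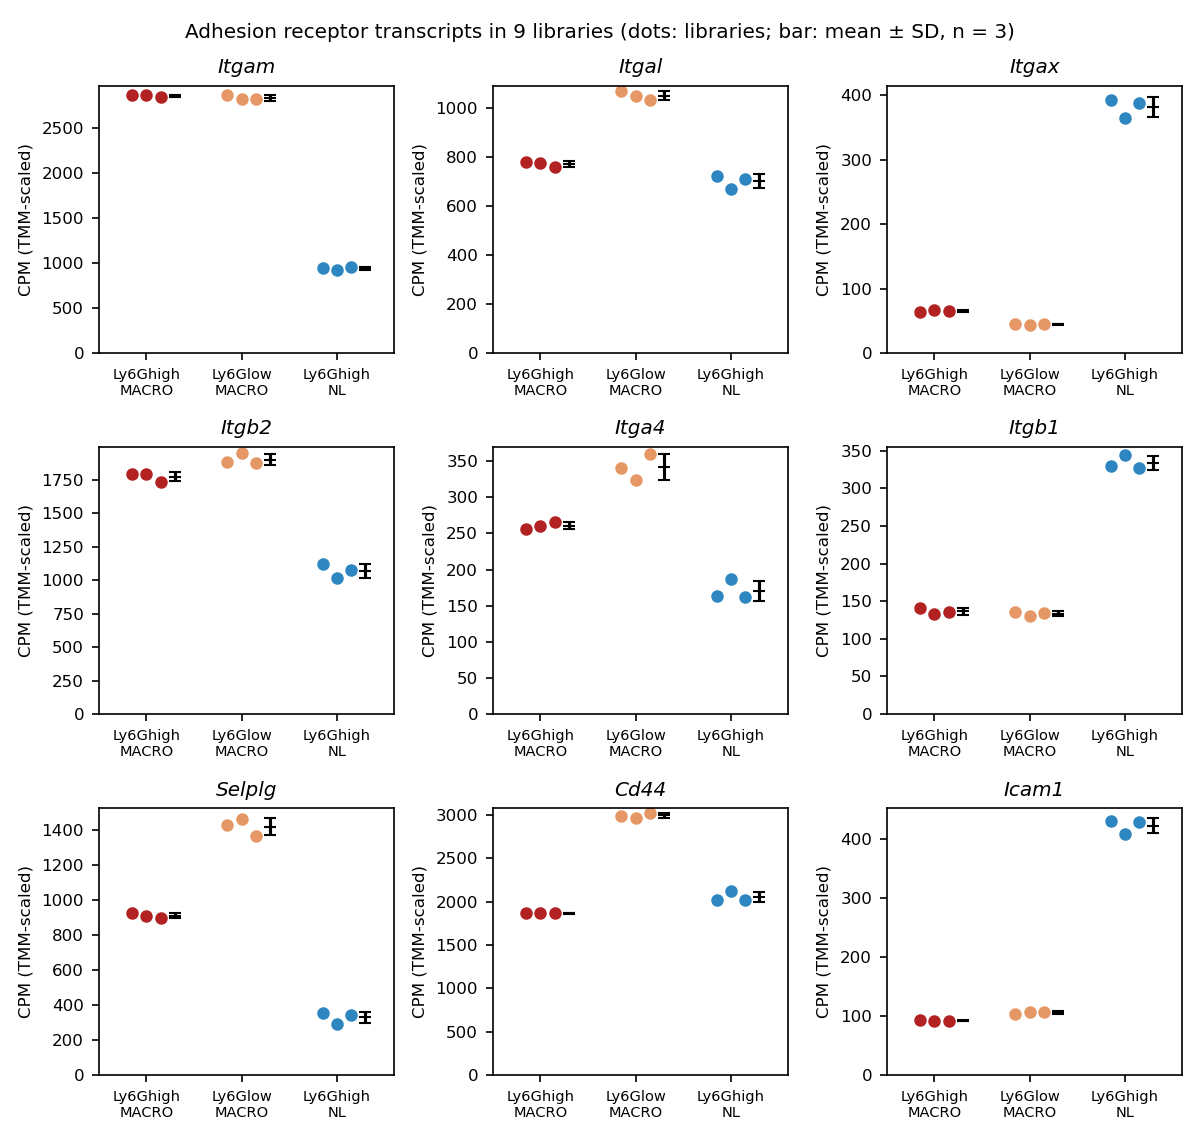
Level of each adhesion receptor in every library, in CPM on a linear axis from 0 (dots, 3 libraries a group, in the order of replicates 1 to 3), with the mean and SD beside them. Itgam sits between 2820 and 2872 CPM in the 6 MACRO libraries and between 926 and 955 in the NL libraries, and Cd44 is highest in Ly6Glow at 2969 to 3022.

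Promoters are shown for Itgam, which was higher in the MACRO groups than in NL, and for Icam1, Itgax and Itgb1, which were lower, so that receptors with opposite differences can be read side by side. Entries were found for 6 of the 9 genes (RefSeq, GRCm38.p6), each the 250 bases before the start in that promoter table, printed 5′ to 3′ with matches in capitals. GAGGAA, a core bound by the myeloid factor PU.1, was searched on both strands (its reverse complement is TTCCTC), with TTCNNNGAA, the form bound by STAT factors, and GGAANTTCC, a form bound by NF-kB and equal in form to its reverse complement. No match printed here overlaps another. Of 32851 mouse promoters of this length, 23.3% held the first, 7.02% the second and 0.813% the last.
Itgam, chr7:128062390-128062639, plus strand: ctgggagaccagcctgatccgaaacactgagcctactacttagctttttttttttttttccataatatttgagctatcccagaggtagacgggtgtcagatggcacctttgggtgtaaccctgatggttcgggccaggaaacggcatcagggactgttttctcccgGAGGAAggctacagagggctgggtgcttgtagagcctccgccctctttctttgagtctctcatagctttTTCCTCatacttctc
Icam1, chr9:21015690-21015939, plus strand: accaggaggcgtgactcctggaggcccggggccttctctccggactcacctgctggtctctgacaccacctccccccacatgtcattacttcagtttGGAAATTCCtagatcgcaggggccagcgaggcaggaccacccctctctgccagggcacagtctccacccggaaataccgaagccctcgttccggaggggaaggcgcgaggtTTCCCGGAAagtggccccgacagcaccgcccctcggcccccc
Itgax, chr7:128129300-128129549, plus strand: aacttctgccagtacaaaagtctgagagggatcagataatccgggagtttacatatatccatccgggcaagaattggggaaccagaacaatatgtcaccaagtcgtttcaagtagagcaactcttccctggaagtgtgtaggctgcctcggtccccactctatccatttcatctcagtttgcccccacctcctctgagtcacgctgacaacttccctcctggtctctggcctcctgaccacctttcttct
Itgb1, chr8:128685404-128685653, plus strand: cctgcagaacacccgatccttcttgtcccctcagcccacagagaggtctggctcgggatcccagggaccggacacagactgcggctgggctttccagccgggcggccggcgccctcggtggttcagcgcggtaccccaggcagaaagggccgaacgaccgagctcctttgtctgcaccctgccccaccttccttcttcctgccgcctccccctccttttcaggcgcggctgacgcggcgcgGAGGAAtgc
The Itgam window held the PU.1 letters at -84 to -79 and, on the other strand, at -15 to -10, counted back from the start. The Icam1 window held the STAT form at -42 to -34 and the NF-kB form at -153 to -145. The Itgb1 window held the PU.1 letters at -9 to -4, and the Itgax window held none of the 3 forms. Of the entries not printed, that of Itga4, called higher in both MACRO groups than in NL, held none of these forms. That of Cd44, not called against NL, held the PU.1 letters on the other strand at -243 to -238 and -220 to -215. The start used for the Itgax promoter lies inside the span of the gene annotation, so that the last 24 bases of its window fall within the gene. Itgal, Itgam and Itgax lie in this order on chromosome 7, with 727503 bases between the first pair and 11035 bases between Itgam and Itgax, so that the CD11 chains with the highest and the lowest log2 fold change against NL are close neighbours. A match is a description of letters and not of binding.

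Itgam encodes CD11b, the alpha chain of the complement receptor that neutrophils use for crawling and phagocytosis, and it had the highest level of the 4 alpha chains in every group, per transcript length. Its level was 2864, 2868 and 2843 CPM in the Ly6Ghigh libraries and 2872, 2820 and 2820 in the Ly6Glow libraries. The NL libraries held 945, 926 and 955 CPM. All 6 MACRO libraries thus lay above the 3 NL libraries with no overlap, and the MACRO groups overlapped. Itgam was 3.03-fold higher in Ly6Ghigh than in NL (log2 fold change 1.60 ± 0.03, SE; adjusted p = 2.97e-22 by edgeR) and 3.01-fold higher in Ly6Glow than in NL (1.59 ± 0.03; adjusted p = 2.53e-22 by edgeR). Between the MACRO groups the difference was -0.01 ± 0.03 (adjusted p = 0.759 by edgeR), and on the FPKM scale it was -0.25. CD11b antibody was among the stains of the sorted cells, and in the transcripts of the GENCODE M21 annotation 66.3% of the 50-base words of Itgam also occurred in the gene model Gm49368, whose reads were not analysed here.

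Itgb2 encodes the beta2 chain that every CD11 chain needs to reach the surface, and its loss causes leukocyte adhesion deficiency. It stood at 1795, 1791 and 1734 CPM in Ly6Ghigh, 1879, 1948 and 1872 in Ly6Glow and 1118, 1017 and 1072 in NL libraries. No NL library reached the lowest MACRO library, and each Ly6Glow library was above each Ly6Ghigh library by a small margin. The log2 fold change was 0.73 ± 0.03 for Ly6Ghigh over NL (adjusted p = 6.06e-15 by edgeR) and 0.83 ± 0.03 for Ly6Glow over NL (adjusted p = 5.22e-16 by edgeR), that is 1.66-fold and 1.78-fold. Between Ly6Glow and Ly6Ghigh it was 0.10 ± 0.03 (adjusted p = 0.0147 by edgeR), under the size threshold and of opposite sign on the FPKM scale (-0.14). The calls against NL were lost on the FPKM scale, at 0.27 and 0.13. That of Ly6Ghigh was also lost with upper-quartile factors (0.54) and with a filter of at least 10 counts in every library (0.56). The NL libraries also held the lowest summed neutrophil markers, with the values given above, and their part in the higher Itgam, Itgb2 and Selplg of the MACRO libraries was not tested. By gene, 11 of 12 of these markers were called higher in Ly6Ghigh than in NL and 1 (Trem1) lower. For Ly6Glow over NL, 10 were called higher and 0 lower. For Ly6Glow over Ly6Ghigh, 5 were called higher and 3 lower. In bulk RNA, fewer cells of a type and less RNA per cell cannot be told apart.

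Itgal encodes CD11a, the alpha chain of the integrin that binds Icam1 most strongly in firm arrest. Its level was 781, 777 and 759 CPM in Ly6Ghigh, 1069, 1049 and 1032.5 in Ly6Glow and 724, 669 and 709 in NL libraries. The Ly6Glow libraries stood clear above all others, while the lowest Ly6Ghigh library was only slightly above the highest NL library. The log2 fold change was 0.44 ± 0.03 between Ly6Glow and Ly6Ghigh (adjusted p = 1.19e-10 by edgeR), 1.36-fold and short of the size threshold. Against NL it was 0.14 ± 0.03 for Ly6Ghigh and 0.58 ± 0.03 for Ly6Glow, the latter just past the threshold at 1.499-fold. Without NL replicate 2 that value was 0.55 and without Ly6Glow replicate 1 it was 0.579, neither past the threshold, and with upper-quartile factors it was 0.39 and with at least 10 counts in every library 0.40. Relative to NL the sign of Itgal depended on the scale, since the FPKM values gave -0.33 for Ly6Ghigh and -0.11 for Ly6Glow, and upper-quartile factors gave -0.05 for Ly6Ghigh, whereas Ly6Glow over Ly6Ghigh stayed positive at 0.22.

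Itgax encodes CD11c, an alpha chain best known from dendritic cells and alveolar macrophages, and it had the largest differences of the 9 receptors against NL. The Ly6Ghigh libraries held 64.0, 66.9 and 65.0 CPM and the Ly6Glow libraries 45.1, 43.6 and 45.2. The NL libraries held 392, 364 and 387 CPM. NL stood far above both MACRO groups, and Ly6Glow lay below Ly6Ghigh without overlap. Itgax was 5.84-fold lower in Ly6Ghigh than in NL (log2 fold change -2.55 ± 0.04, adjusted p = 9.52e-23 by edgeR) and 8.55-fold lower in Ly6Glow than in NL (-3.10 ± 0.04, adjusted p = 1.05e-23 by edgeR). Between Ly6Glow and Ly6Ghigh it was -0.55 ± 0.05 (adjusted p = 3.19e-09 by edgeR), not past the size threshold, whereas on the FPKM scale it was -0.69 and past it. The 15 alveolar macrophage markers summed to 2023 to 2078 CPM in Ly6Ghigh, 899.6 to 926 in Ly6Glow and 2758 to 2784 in NL libraries, the same order of groups as Itgax. Most of that sum in Ly6Ghigh was Chil3, at 1274, 277 and 964 CPM in Ly6Ghigh, Ly6Glow and NL libraries, while by gene 12 of 15 markers were called lower in Ly6Ghigh than in NL (median log2 fold change -1.95), 13 of 15 in Ly6Glow than in NL (-4.64) and 10 of 15 in Ly6Glow than in Ly6Ghigh (-2.20). The 9 dendritic cell markers summed to 165 to 178, 107 to 114 and 434 to 506 CPM in that order, with 9 of 9 called lower in each MACRO group than in NL. No defining marker of either list was at 0 in any group, and their part in the Itgax result was not tested. Itgax shared 8.02% of its 50-base words with Itgad, which was at most 0.456 CPM in any library.

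Per transcript length, the balance among the alpha chains of Itgb2 differed between the groups. Of the summed FPKM of Itgam, Itgal, Itgax and Itgad, Itgam made up 78.5% ± 0.181 in Ly6Ghigh, 73.5% ± 0.288 in Ly6Glow and 46.1% ± 0.743 in NL libraries (SD, n = 3). Itgal made up 19.3%, 25.03% and 31.4% in the same order, and Itgax 2.17%, 1.43% and 22.5%. The ranges of these shares overlapped between no pair of groups. The FPKM ratio of Itgam to Itgal was 4.07 in Ly6Ghigh, 2.94 in Ly6Glow and 1.47 in NL libraries, and the ratio of Itgam to Itgb2 was 0.978, 0.906 and 0.535. Ratios between genes of one library do not depend on how libraries are scaled. With 3 libraries against 3 an exact permutation test cannot give a two-sided p below 0.1, so no p is given for these shares and ratios.

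**Figure D2:**
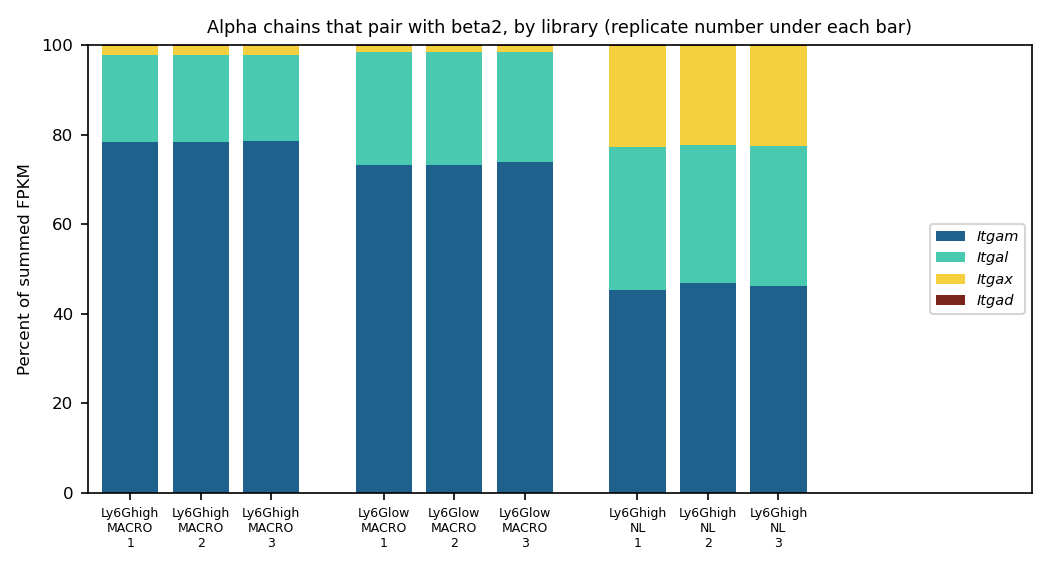
Share of each alpha chain in the summed FPKM of the chains that pair with Itgb2, in percent, as stacked bars from 0 to 100, a bar for each of the 9 libraries. Itgam is at 78.4% to 78.7% in Ly6Ghigh, 73.3% to 73.9% in Ly6Glow and 45.3% to 46.8% in NL libraries, and Itgad is too low to be seen.

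Itga4 encodes the alpha4 chain, which binds Vcam1 and fibronectin. Its level was 257, 260 and 266 CPM in Ly6Ghigh, 341, 324 and 360 in Ly6Glow and 163, 187 and 163 in NL libraries. The 3 groups did not overlap and were ordered NL, Ly6Ghigh, Ly6Glow. The log2 fold change was 0.61 ± 0.05 for Ly6Ghigh over NL (adjusted p = 7.04e-11 by edgeR), 1.00 ± 0.05 for Ly6Glow over NL (adjusted p = 9.86e-15 by edgeR) and 0.39 ± 0.05 for Ly6Glow over Ly6Ghigh (adjusted p = 3.09e-07 by edgeR), the last under the size threshold. The first of these calls was lost without NL replicate 1 (0.577), and also with upper-quartile factors (0.42) and with at least 10 counts in every library (0.44). Both calls against NL were lost on the FPKM scale (0.14 and 0.29).

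Itgb1, the beta chain of the receptors for collagen, laminin and fibronectin, was lower in the MACRO groups, where its partner Itga4 was higher. It stood at 142, 133 and 136 CPM in Ly6Ghigh and 136, 130 and 135 in Ly6Glow libraries, which overlapped, and at 330, 344 and 327 in NL libraries, which lay above all of them. Itgb1 was 2.44-fold lower in Ly6Ghigh than in NL (log2 fold change -1.29 ± 0.04, adjusted p = 1.35e-18 by edgeR) and 2.50-fold lower in Ly6Glow than in NL (-1.32 ± 0.04, adjusted p = 1.04e-18 by edgeR). Between the MACRO groups it was -0.03 ± 0.04 (adjusted p = 0.51 by edgeR). The FPKM ratio of Itga4 to Itgb1 was 0.81 in Ly6Ghigh, 1.08 in Ly6Glow and 0.216 in NL libraries. Itgb1 is broadly made by tissue cells, and the summed markers of other lung cells were higher in NL as well. They were 89.6 to 91.1, 103 to 108 and 775 to 846 CPM for 7 endothelial markers and 49.8 to 57.4, 51.7 to 57.7 and 518 to 549 CPM for 6 fibroblast markers in Ly6Ghigh, Ly6Glow and NL libraries.

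Icam1, a ligand of the beta2 integrins that is carried by endothelium, epithelium and activated leukocytes, was likewise highest in NL. Its level was 93.2, 91.4 and 92.1 CPM in Ly6Ghigh, 104, 108 and 107 in Ly6Glow and 432, 408 and 429 in NL libraries. Every NL library was far above every MACRO library, and Ly6Glow was slightly above Ly6Ghigh. Icam1 was 4.58-fold lower in Ly6Ghigh than in NL (log2 fold change -2.20 ± 0.04, adjusted p = 2.1e-22 by edgeR) and 3.99-fold lower in Ly6Glow than in NL (-1.996 ± 0.04, adjusted p = 7.88e-22 by edgeR). Between Ly6Glow and Ly6Ghigh it was 0.20 ± 0.04 (adjusted p = 0.00019 by edgeR), not past the size threshold and -0.03 on the FPKM scale. The 8 epithelial or tumor markers summed to 104 to 110 CPM in Ly6Ghigh, 106 to 112 in Ly6Glow and 1105 to 1241 in NL libraries. No defining marker of the endothelial, fibroblast or epithelial lists was at 0. Among leukocyte lists for Ly6Ghigh over NL, 9 of 10 T cell and 3 of 4 NK cell markers were called lower, with 0 higher. Of 13 monocyte or macrophage markers, 8 were called lower and 1 higher. Called higher were 6 of 8 eosinophil, 5 of 6 basophil or mast cell and 3 of 7 B cell markers, with 0, 1 and 2 lower. The part of all these lists in the Itgb1 and Icam1 results was not tested.

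**Figure D3:**
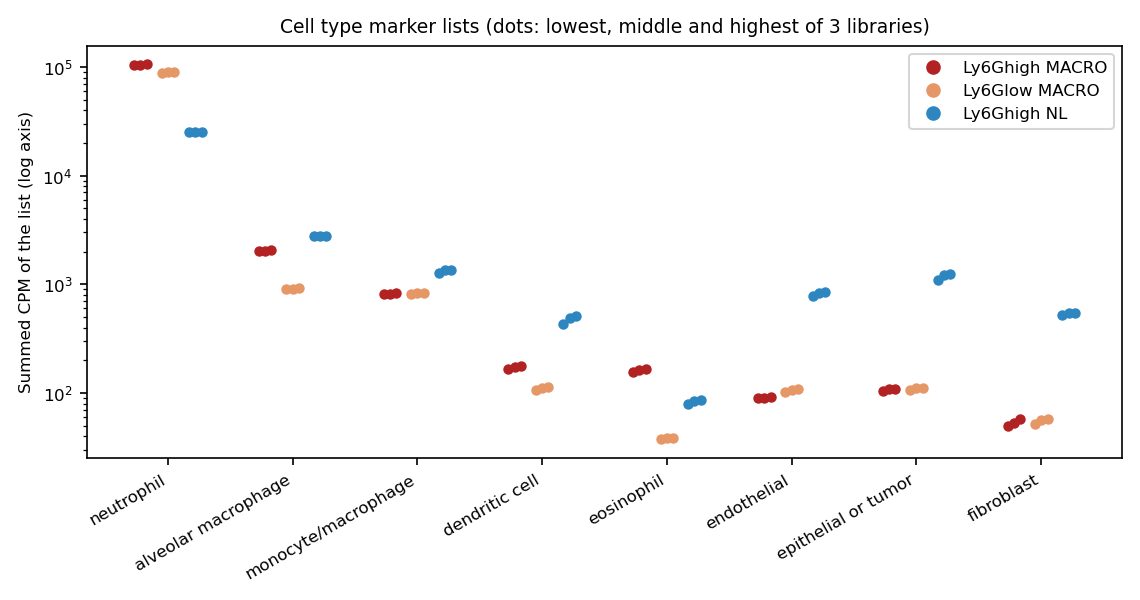
Summed CPM of cell type marker lists in each group on a log axis, with dots for the lowest, middle and highest of 3 libraries. Neutrophil markers are lowest in NL (25010 to 25230 CPM), where endothelial (775 to 846), epithelial or tumor (1105 to 1241) and fibroblast (518 to 549) markers are highest.

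Selplg encodes PSGL-1, the main ligand of P-selectin in rolling, and it was called in all 3 comparisons. The Ly6Ghigh libraries held 927, 910 and 898 CPM, the Ly6Glow libraries 1431, 1464 and 1367, and the NL libraries 354, 294 and 344. The groups did not overlap, with NL lowest and Ly6Glow highest. Selplg was 2.76-fold higher in Ly6Ghigh than in NL (log2 fold change 1.46 ± 0.05, adjusted p = 1.63e-17 by edgeR) and 4.30-fold higher in Ly6Glow than in NL (2.10 ± 0.05, adjusted p = 3.04e-20 by edgeR). It was 1.56-fold higher in Ly6Glow than in Ly6Ghigh (0.64 ± 0.05, adjusted p = 1.09e-10 by edgeR). On the FPKM scale the last difference was 0.40, with a limma adjusted p of 7.25e-05, and no longer past the size threshold.

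Cd44, the receptor for hyaluronan and a ligand of E-selectin, had its largest difference between the MACRO groups. Its level was 1869, 1863 and 1865 CPM in Ly6Ghigh, 2993, 2969 and 3022 in Ly6Glow and 2014, 2121 and 2018 in NL libraries. All Ly6Glow libraries lay above all others, and Ly6Ghigh lay just under NL. Cd44 was 1.60-fold higher in Ly6Glow than in Ly6Ghigh (log2 fold change 0.68 ± 0.03, adjusted p = 6.95e-15 by edgeR). Against NL it was 0.55 ± 0.03 in Ly6Glow (adjusted p = 3.89e-14 by edgeR) and -0.14 ± 0.03 in Ly6Ghigh (adjusted p = 0.000115 by edgeR), both under the size threshold, which the former passed with DESeq2 (0.64). On the FPKM scale the difference between the MACRO groups was 0.45 and under the size threshold, that of Ly6Ghigh over NL was -0.60 and past it, and that of Ly6Glow over NL changed sign to -0.15.

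**Figure D4:**
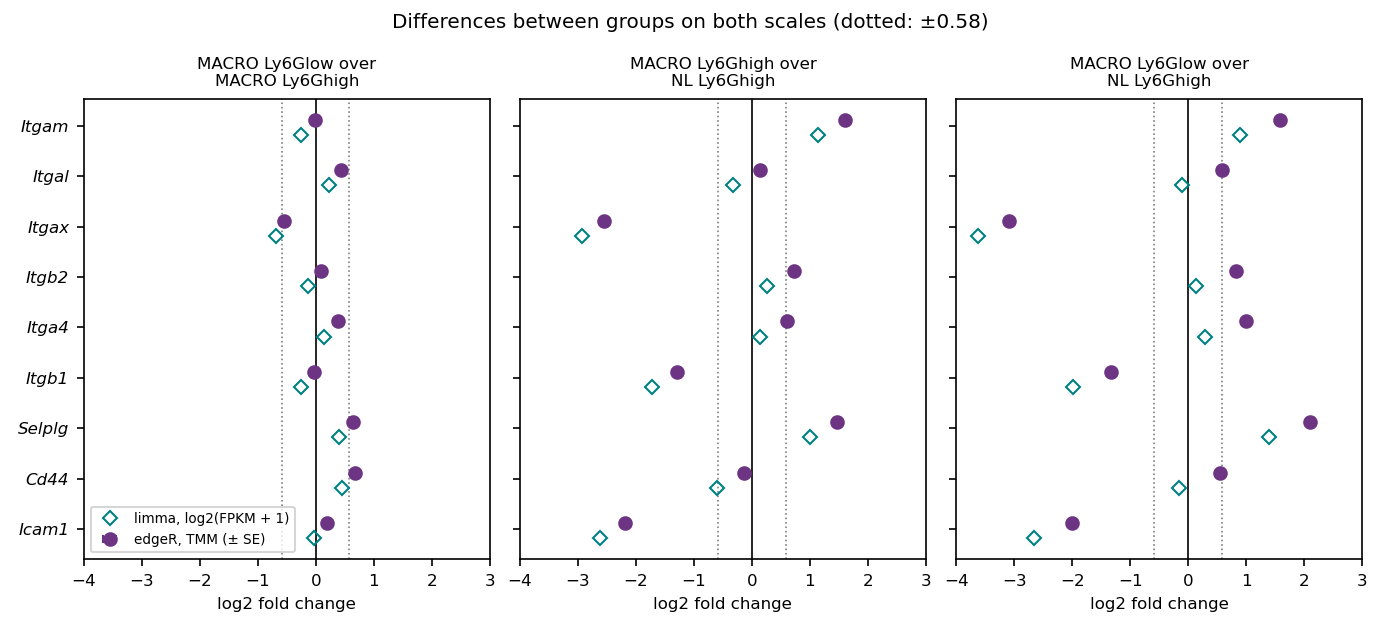
Log2 fold change of the 9 receptors in the 3 comparisons, from edgeR with TMM scaling (filled circles, bars for the SE, mostly smaller than the symbol) and from limma on log2(FPKM + 1) (open diamonds). Dotted lines mark 0.58 in both directions. Itgam and Selplg lie to the right and Itgax, Itgb1 and Icam1 to the left of 0 against NL on both scales. Itgal changes side in both comparisons with NL, and Cd44 in that of Ly6Glow.

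Per transcript length, Itgb2 and Itgam led in Ly6Ghigh (598 ± 10.7 and 585 ± 2.41 FPKM, ranges that overlapped), followed by Selplg at 454, Cd44 at 408 and Itgal at 144 FPKM. The remaining 4 lay between 16.2 FPKM for Itgax and 34.6 for Icam1. In Ly6Glow the order began with Selplg at 600 ± 18.3 FPKM, followed by Cd44 at 556 and Itgb2 at 545, which overlapped, and Itgam at 493. In NL libraries Cd44 led at 619 ± 22.6 FPKM, before Itgb2 at 497 and Itgam at 266, and Selplg (227) overlapped with Icam1 (219). Icam1 was thus the fifth most abundant receptor in NL and the sixth in both MACRO groups, and Itgax was last in both MACRO groups at 16.2 and 9.62 FPKM but stood at 130 FPKM in NL.

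The genes most like each receptor over the 9 libraries were taken from 7389 genes of at least 10 CPM by Pearson's r of log2 CPM. They were Cd52 and Ncoa3 for Itgam, Orai1 and Coro1a for Itgb2, Abi3 and Rhbdf2 for Itgal, Sept8 and Thbs1 for Itgax, Ythdf3 and Zfp638 for Itga4, Cd93 and Pkd2 for Itgb1, Gak and Zdhhc18 for Selplg, Kctd12 and H2-T24 for Cd44, and Slco2a1 and Ager for Icam1, all with r of at least 0.998. These values rest on 3 group means, and 236 genes for Cd44 and 2060 for Itgam had r above 0.95, so that a high r is common here.

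Beyond the 9 receptors, 103 of 106 listed genes of adhesion were tested. For Ly6Ghigh over NL, 34 were called higher and 48 lower (median log2 fold change -0.33 against -0.09 for all genes), for Ly6Glow over NL 41 and 46 (-0.26 against -0.16), and for Ly6Glow over Ly6Ghigh 16 and 10 (0.11 against -0.04). As shares of the 103 these were 33.0% and 46.6%, 39.8% and 44.7%, and 15.5% and 9.71%, beside 26.3% and 36.6%, 28.7% and 40.8%, and 9.29% and 15.9% of all genes. With TMM scaling the same shares of all genes are the background of the lists that follow. On the FPKM scale the splits were 13 and 49, 13 and 48, and 7 and 15. All 14108 genes split there into 1429 higher and 5134 lower, 1125 and 6438, and 320 and 1923, in the same order. These are the background of list counts on that scale. The other integrin alpha chains were mostly lower in the MACRO groups than in NL. For Ly6Ghigh over NL, 0 of 13 were called higher and 10 lower (median -2.13), as for Itga9 at -3.12. With at least 10 counts in every library, 0 of 11 were called higher and 9 lower. For Ly6Glow over NL, 1 of 13 was called higher (Itga5, 1.16) and 10 lower (median -2.66). For Ly6Glow over Ly6Ghigh, 2 of 13 were called higher (Itga5, 0.93, and Itgav, 0.63) and 0 lower. Itga5 was at 170, 324 and 145 CPM in Ly6Ghigh, Ly6Glow and NL libraries. Of 6 other beta chains, 1 was called higher and 3 lower for Ly6Ghigh over NL (median -1.19). With at least 10 counts in every library, 4 beta chains were left, with 1 called higher and 1 lower (median -0.008). The higher was Itgb2l, a neutrophil paralog of Itgb2, at 114 ± 1.52 CPM in Ly6Ghigh, 58.6 ± 2.48 in Ly6Glow and 23.6 ± 1.72 in NL libraries (SD, n = 3). In Ly6Glow relative to Ly6Ghigh, Itgb2l (-0.96) and Itgb7 (-1.08), the other partner of Itga4, were both called lower, unlike Itgb2 and Itga4. Markers of some other leukocytes were lower in Ly6Glow too, and their part was not tested. Markers of monocytes and macrophages (4 of 13 called lower), T cells (2 of 10) and dendritic cells (2 of 9, and 1 higher) were mostly not called. Of 6 basophil or mast cell markers tested, 4 were called lower. The 8 eosinophil markers summed to 157 to 165 CPM in Ly6Ghigh, 37.6 to 38.9 in Ly6Glow and 78.8 to 85.8 in NL libraries, with 7 of 8 called lower in Ly6Glow than in Ly6Ghigh (median -4.43), and so were 7 of 7 B cell markers and all 4 NK cell markers tested.

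Genes of integrin activation and linkage to actin were mostly higher in the MACRO groups with TMM scaling. Of 30 tested, 24 were called higher and 4 lower for Ly6Ghigh over NL (median 0.92), and 23 and 3 for Ly6Glow over NL (median 1.09). On the FPKM scale these counts were 8 and 5 (median 0.46) and 9 and 4 (median 0.39). All 14108 genes split there into 1429 higher and 5134 lower (median -0.32) and 1125 and 6438 (median -0.49), in the same order. The part of the higher neutrophil markers of the MACRO libraries in these counts was not tested. Tln1, which encodes the talin that binds beta chain tails, was at 2066 ± 11.4, 2137 ± 35.7 and 1027 ± 60.5 CPM in Ly6Ghigh, Ly6Glow and NL libraries (1.01 for Ly6Ghigh over NL). Fermt3, the kindlin of blood cells, was at 333 ± 3.08, 299 ± 10.2 and 98.4 ± 7.20 CPM (1.76), whereas Fermt2, the kindlin of tissue cells, was called lower at -3.07. Between the MACRO groups, 4 of these 30 were called higher in Ly6Glow (Fyb, Cyth1, Zyx and Syk) and 1 lower (Tagap, -1.20), against 1 and 4 on the FPKM scale. Of all genes, 320 were called higher and 1923 lower on that scale.

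Selectins and the enzymes that build their ligands bear on Selplg and Cd44. Among the 15 genes of this list, 3 were called higher in Ly6Glow than in Ly6Ghigh and 1 lower. The higher ones included Gcnt1, which makes the core branch of the Selplg glycan (1.18), and the sialyltransferase St3gal6 (1.51), which was called lower in Ly6Ghigh than in NL at -0.90. The lower was the fucosyltransferase Fut7 (-1.30), which was low in every group at 4.02, 1.62 and 2.63 CPM in Ly6Ghigh, Ly6Glow and NL libraries. Adam17, a protease that sheds surface proteins, was at 240 ± 1.77, 387 ± 5.03 and 252 ± 3.25 CPM in Ly6Ghigh, Ly6Glow and NL libraries (0.69 between the MACRO groups, and 0.45 and under the size threshold on the FPKM scale). Selp was at 73.1, 100 and 49.1 CPM, and Sele, the selectin of endothelium, at 3.02, 4.51 and 15.2 CPM.

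Most other counter-receptors were lower in the MACRO groups, as Icam1 was. Endothelial (7 of 7), epithelial or tumor (8 of 8) and fibroblast markers (6 of 6) were called lower for Ly6Ghigh over NL too. Their part in any of the adhesion lists was not tested. Of 19 immunoglobulin-family genes tested, 2 were called higher and 14 lower for Ly6Ghigh over NL (median -1.98), and 3 and 15 for Ly6Glow over NL. Called higher in both were Ceacam1 and Cd47, and Sirpa for Ly6Glow only (0.59). Ceacam1 was at 444, 242 and 122 CPM and Cd47 at 391, 324 and 147 CPM in Ly6Ghigh, Ly6Glow and NL libraries. Some genes of this list had few counts in the MACRO libraries. With at least 10 counts in every library, 16 were left, with 2 and 13 called (median -1.80) and 2 and 12. Vcam1, the ligand of the alpha4 integrins, was at 9.79 ± 0.366, 10.4 ± 0.545 and 71.3 ± 3.12 CPM in Ly6Ghigh, Ly6Glow and NL libraries, and Icam2, of endothelium and leukocytes, at 6.60, 6.22 and 27.04 CPM. Both were called lower in each MACRO group than in NL, at -2.86 and -2.03 for Ly6Ghigh. Among 17 hyaluronan and other Cd44 partners, 3 were called higher and 11 lower for Ly6Ghigh over NL, with Lyve1 (-3.55) and Stab1 (-3.04), receptors of lymphatic and sinusoidal endothelium, among the lower. With at least 10 counts in every library, 2 of 15 were called higher and 9 lower. Spp1, which encodes the Cd44 ligand osteopontin, was at 83.4 ± 0.706, 192 ± 2.33 and 567 ± 11.9 CPM and was called higher in Ly6Glow than in Ly6Ghigh (1.20). In Ly6Glow relative to NL, Lyve1 was at -3.46, and of the integrin chains Itga3 was at -3.26, Itgb5 at -3.22 and Itga9 at -3.02.

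**Figure D5:**
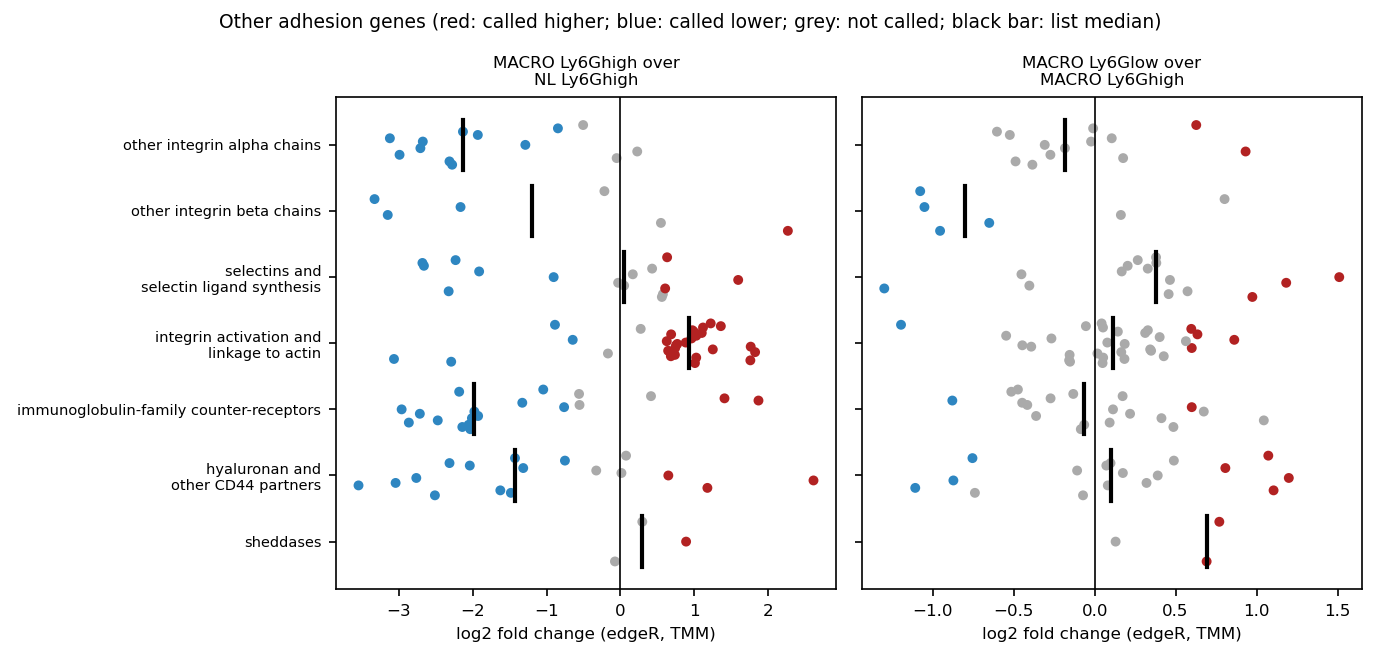
Log2 fold change (edgeR, TMM) of the other adhesion genes by list, for Ly6Ghigh over NL and for Ly6Glow over Ly6Ghigh, a dot for each gene, red where called higher, blue where called lower and grey where not called, with a black bar at the median of the list. The activation genes lie to the right of 0 against NL with a median of 0.92, and the other alpha chains and counter-receptors to the left with medians of -2.13 and -1.98.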

How the data were processed

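RNA of sorted lung neutrophils was measured by bulk RNA-seq in 9 libraries, 3 per group, prepared from poly(A) RNA. Titles and treatment labels gave the groups; the description field of the NL libraries names the Ly6Ghigh group only. The tables deposited by the authors hold an estimated count per gene, not normalized and whole in 37.9% of table entries, and an FPKM value, which the authors scaled for transcript length and fragments. The build is mm10 per the labels' processing notes; the aligner and counter are not given in the sources used here. The estimated counts were rounded and fitted in R 4.3.3 with edgeR 4.0.16 (TMM, filterByExpr, quasi-likelihood F test, all 9 libraries in 1 model of 3 groups), with Benjamini-Hochberg adjustment over 14108 genes. A call needed an adjusted p no higher than 0.05 with a log2 fold change beyond 0.58 in either direction, the size that the study's methods use with DESeq2. The SE was the log2 fold change divided by the square root of F. Library totals were 15267177 to 17841807 and TMM factors 0.803 to 1.32. On simulated counts for Ly6Glow over Ly6Ghigh on 14108 genes, the procedure recovered 88% of genes raised by 1 on the log2 scale and 80% of those lowered by 1.

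The 9 receptors and the gene lists were chosen with earlier results of these data known. Named beyond them were 12 fixed partners (of which 1 is not reported here), Ly6g, per comparison the 4 called adhesion genes of largest change that did not overlap and reached 10 CPM in the higher group, and per receptor the 2 genes most alike; other genes named in counts were chosen after their values were seen. Alternatives were DESeq2 1.42.0 and its size factors, upper-quartile factors, other filters, only 6 libraries, a replicate block, each library left out, other thresholds, and limma 3.58.1 on log2(FPKM + 1) or log2(FPKM + 0.1). Promoters were read from a RefSeq table (GRCm38.p6, the mm10 assembly).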

Additional observations from a re-analysis of the deposited data

How the results depend on the processing

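Itgam and Selplg (higher) and Itgax, Itgb1 and Icam1 (lower) kept their calls against NL under every alternative run. Of 567 log2 fold changes of the 9 receptors under alternatives, 497 kept direction and call and 21 changed sign; the cause was not tested.

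Leaving out 1 library moved no count of calls by over 1.5 times, and the calls lost among receptors were those of Itgal and Itga4 given above. For Ly6Glow over Ly6Ghigh, 3560 genes were called, 2243 with limma on log2(FPKM + 1), 2223 with a filter of 1 FPKM added, 7868 with no size threshold and 1305 with a threshold of 1. The receptors called there were 1 (Itgax, lower) with each of the 3 FPKM settings, 7 with no size threshold and 0 with a threshold of 1, and the other adhesion genes 63 and 10 with these last settings instead of 26. For Ly6Glow over NL, 5 receptors were called instead of 8 with each FPKM setting (2 higher, 3 lower), and 56 other adhesion genes instead of 87 with FPKM of at least 1. For Ly6Ghigh over NL the receptors split 2 higher and 3 lower with upper-quartile factors or with at least 10 counts in every library, and 2 and 4 on the FPKM scale, and the other adhesion genes 23 and 51 with upper-quartile factors. The share of higher genes among all calls went from 36.8% to 14.3%, from 41.8% to 21.8% and from 41.3% to 14.9% on the FPKM scale, in the order of Ly6Glow over Ly6Ghigh, Ly6Ghigh over NL and Ly6Glow over NL.

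Signs changed for Ly6Glow over Ly6Ghigh with DESeq2 or its size factors in Itgam (0.055) and Itgb1 (0.033). With the FPKM settings they changed there in Itgb2 (-0.136), Icam1 (-0.0348 and -0.0357), Ly6g (-0.16), Vcam1 (-0.105 and -0.139) and Tln1 (-0.187 and -0.188). For Ly6Ghigh over NL, Itgal turned to -0.0516 with upper-quartile factors, -0.0333 with at least 10 counts in every library, and -0.329 and -0.331 with FPKM. For Ly6Glow over NL, Itgal (-0.108 and -0.109), Cd44 (-0.152) and Adam17 (-0.082 and -0.083) turned with FPKM.

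Replicate numbers did not pair the libraries: deviations of equally numbered libraries correlated between -0.0683 and 0.0766. With the replicate block, calls were 3522, 8856 and 9775 of all genes for Ly6Glow over Ly6Ghigh, Ly6Ghigh over NL and Ly6Glow over NL, and 2, 7 and 8 receptors, as without it. Calls of Fut7 against NL were lost without Ly6Ghigh replicate 1 (0.55) or NL replicate 2 (0.46) for Ly6Ghigh, and without Ly6Glow replicate 1 (-0.53) for Ly6Glow. Itgad, at most 0.456 CPM, did not pass the filter on low counts and was not tested. Counts of the adhesion lists on other scalings were added after the data were seen.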
